A study of Mus musculus with 6 samples.

Results

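Creatine kinases, adenylate kinases and myoglobin were followed in the left ventricle as 9 genes picked by symbol: the creatine kinases Ckm, Ckmt2 and Ckb, the creatine transporter gene Slc6a8, the creatine synthesis genes Gatm and Gamt, the adenylate kinases Ak1 and Ak3, and the myoglobin gene Mb. Each symbol matched 1 row of a table of 52550 genes. The libraries came from C57BL/6J mice of 12 months. There were 3 libraries labelled PKI, described as overexpressing PGC1alpha, a transcriptional coactivator known for driving mitochondrial genes, and 3 labelled wild-type (WT). What drives the overexpression, the cells it acts in and the number of animals per library were not given in the labels. Nothing states that the libraries came from separate animals, so p-values describe the spread among these 6 libraries, which may be technical.

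Heart muscle spends ATP at a high rate and holds little of it, so the phosphate bond must be moved and refilled quickly. Mitochondrial creatine kinase charges creatine where ATP is made, the cytosolic muscle enzyme recovers ATP at the myofilaments, adenylate kinases join ADP molecules into ATP and AMP, and AMP in turn activates AMP-activated protein kinase. Creatine is made from arginine and glycine mainly in kidney and liver and is carried into heart cells from the blood. Myoglobin stores oxygen in muscle cells and eases its passage to mitochondria.

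Values were fragments scaled to exon length and to the library total (FPKM), as deposited, and a change is a difference in log2(FPKM + 1) between the libraries labelled PKI and the WT libraries, tested with limma across 9907 genes and called at a Benjamini-Hochberg adjusted p under 0.05. The gene meant to be overexpressed was not higher: Ppargc1a had 11.6, 11.8 and 11.4 FPKM in the libraries labelled PKI and 14.2, 12.8 and 12.4 FPKM in WT, a log2 change of -0.16 (SE 0.07, limma adjusted p = 0.0967) and of -0.42 after the median-of-ratios scaling described next, where it was called lower (limma adjusted p = 0.00663). Every direction given here therefore follows the label and not a measured rise of that gene. Mitochondrial transcripts and their nuclear copies took 78.0% to 78.2% of all FPKM in the libraries labelled PKI and 81.8% to 82.3% in WT. The median change of all tested genes was 0.21, and 39.4% of them were called, 36.4% higher and 2.96% lower. Dividing each library by a median-of-ratios size factor took that median to -0.00, and member changes are given on both scales where the scale matters.

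Of the 8 members that passed the filter of a mean of at least 1 FPKM, Ckmt2, Ckb, Gamt and Ak3 were called higher in the libraries labelled PKI and 0 were called lower. That is 4 of 8, against 36.4% of all tested genes called higher, and the members' median change of 0.16 lay under the 0.21 of all tested genes. After median-of-ratios scaling Ckb was the 1 member called higher, and Ckm and Ak1 were the 2 called lower, against backgrounds of 8.54% and 8.23%. Scaling to the nuclear total, that is to FPKM outside mitochondrial genes and their copies, called the same 3 members in the same directions, against 10.3% and 6.09%. Scaling to the cardiomyocyte markers called Ckb and Gamt higher and 0 lower, against 22% and 3.05%. In all libraries labelled PKI, 5 of the 9 members (Ckmt2, Ckb, Gatm, Gamt and Ak3) were above every WT library and 1 (Ckm) was below, where 51.3% and 4.53% of all tested genes did so. After median-of-ratios scaling, Ckb, Gatm and Gamt were the 3 above and Ckm, Ak1 and Mb the 3 below, against 18.6% and 18.4%. After scaling to the cardiomyocyte markers 4 were above and the same 3 below, against 40.6% and 6.18%. Each of these counts above WT includes Gatm, which failed the filter, while the shares cover tested genes only. In bulk tissue, fewer cells of a type and less RNA per cell cannot be told apart in any of these values.

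The shares of the 3 creatine kinases differed between the groups with no overlap, as given further on, so the stretch at the start of each gene is shown first. Each is 300 bases of RefSeq, build GRCm38.p6, running from 250 bases before to 50 after the annotated start and read in the direction of the gene. Capitals mark matches on either strand to the letters CANNTG (the E-box), to CCAAT (the CCAAT box), and to TATAAA, which is known as the TATA box. The MEF2 site, the CArG box and the estrogen-related receptor half-site with the letters AAGGTCA were searched in the same way. Ckm lies at chr7:19410844-19411143 on the plus strand, Ckmt2 at chr13:91876836-91877135 on the minus strand and Ckb at chr12:111672289-111672588 on the minus strand. The RefSeq start used for Ckm lies inside the gene span given below, which begins at 19404776.
Ckm: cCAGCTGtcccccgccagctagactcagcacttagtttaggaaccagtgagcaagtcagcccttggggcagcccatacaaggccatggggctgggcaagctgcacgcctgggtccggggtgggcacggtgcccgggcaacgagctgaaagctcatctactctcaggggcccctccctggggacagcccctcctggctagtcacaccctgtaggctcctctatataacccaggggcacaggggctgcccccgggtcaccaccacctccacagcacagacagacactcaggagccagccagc
Ckmt2: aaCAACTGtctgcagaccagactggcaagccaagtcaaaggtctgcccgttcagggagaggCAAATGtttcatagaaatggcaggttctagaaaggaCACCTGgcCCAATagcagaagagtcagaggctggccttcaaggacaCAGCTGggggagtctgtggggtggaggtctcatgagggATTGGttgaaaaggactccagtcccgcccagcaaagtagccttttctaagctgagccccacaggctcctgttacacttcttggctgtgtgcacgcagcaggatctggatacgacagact
Ckb: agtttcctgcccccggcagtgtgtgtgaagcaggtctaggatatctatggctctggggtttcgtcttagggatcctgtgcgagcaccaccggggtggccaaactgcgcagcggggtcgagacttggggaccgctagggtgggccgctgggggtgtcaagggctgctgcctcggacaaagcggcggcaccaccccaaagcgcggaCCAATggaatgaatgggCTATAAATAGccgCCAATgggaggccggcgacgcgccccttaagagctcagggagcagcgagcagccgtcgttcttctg
The Ckm stretch held 1 E-box, at its far upstream end, and none of the other motifs. The Ckmt2 stretch held 4 E-boxes and 2 CCAAT boxes. In the Ckb stretch there was no E-box; it held 2 CCAAT boxes and, between them, 1 MEF2 site that starts at position -29, counted from the annotated start, and contains its 1 TATA box. Among 32851 RefSeq promoters of that length, 72.3% held an E-box, 37.4% a CCAAT box, 13.6% a TATA box, 4.72% the AAGGTCA half-site, 1.63% a CArG box and 0.557% a MEF2 site. RefSeq gave 13 such stretches for 8 of the 9 members, and AAGGTCA was found in 1 of them, start 3 of Ak1. A match describes letters and does not show a bound site.

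Ckm encodes the muscle-type cytosolic creatine kinase of the myofilaments (ENSMUSG00000030399, chromosome 7, 19404776 to 19422841, plus strand, GRCm38). It had 324.8, 292.0 and 305.6 FPKM in the libraries labelled PKI, a mean of 307 ± 16.5, and 325.4, 356.5 and 327.3 FPKM in WT, a mean of 336 ± 17.4 (SD, n = 3 each). The 3 libraries labelled PKI lay below the 3 WT libraries, but the highest of them almost touched the lowest WT value. The log2 change of -0.13 (SE 0.06, 95% interval -0.28 to 0.02) was not called as deposited (limma adjusted p = 0.133). After median-of-ratios scaling Ckm fell by 0.40 on the log2 scale (limma adjusted p = 0.00895), and after scaling to the cardiomyocyte markers its log2 change was -0.19 (limma adjusted p = 0.0549). Of all tested genes, 7.61% had a change below that of Ckm.

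Ckmt2, which encodes the mitochondrial creatine kinase of heart and skeletal muscle, was called higher (ENSMUSG00000021622, chromosome 13, 91853387 to 91876885, minus strand). Its values were 999, 891 and 941 FPKM in the libraries labelled PKI, against 802, 765 and 816 FPKM in WT. All libraries labelled PKI were above all WT libraries, with means of 944 ± 54.2 FPKM in the libraries labelled PKI and 795 ± 26.2 FPKM in WT (SD, n = 3 each), a ratio of 1.19. The log2 change was 0.25 (SE 0.06, 95% interval 0.11 to 0.38, limma adjusted p = 0.0152), close to the median of all tested genes. It turned to -0.03 after median-of-ratios scaling (limma adjusted p = 0.813) and was 0.18 after scaling to the cardiomyocyte markers (limma adjusted p = 0.0967).

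Ckb encodes the brain-type cytosolic creatine kinase, known from brain, smooth muscle and the fetal heart (ENSMUSG00000001270, chromosome 12, 111669361 to 111672338, minus strand). It had 7.0, 7.96 and 7.67 FPKM in the libraries labelled PKI, against 3.66, 4.57 and 4.66 FPKM in WT. The groups were well apart: the lowest library labelled PKI was above the highest WT library, with means of 7.55 ± 0.493 FPKM in the libraries labelled PKI and 4.30 ± 0.551 FPKM in WT (SD, n = 3 each), a ratio of 1.76. The log2 change was 0.69 (SE 0.10, 95% interval 0.47 to 0.92, limma adjusted p = 0.00287), and 94.5% of tested genes had a smaller change. Ckb was called higher under each scaling, with a log2 change of 0.46 after median-of-ratios scaling (limma adjusted p = 0.0221), 0.51 after nuclear total scaling (limma adjusted p = 0.0141) and 0.64 after scaling to the cardiomyocyte markers (limma adjusted p = 0.00526). Reads may be shared with the pseudogene Gm12892, which is 96.8% identical over 1149 bases and was listed at 0.546 FPKM or less in every library.

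**Figure D1:**
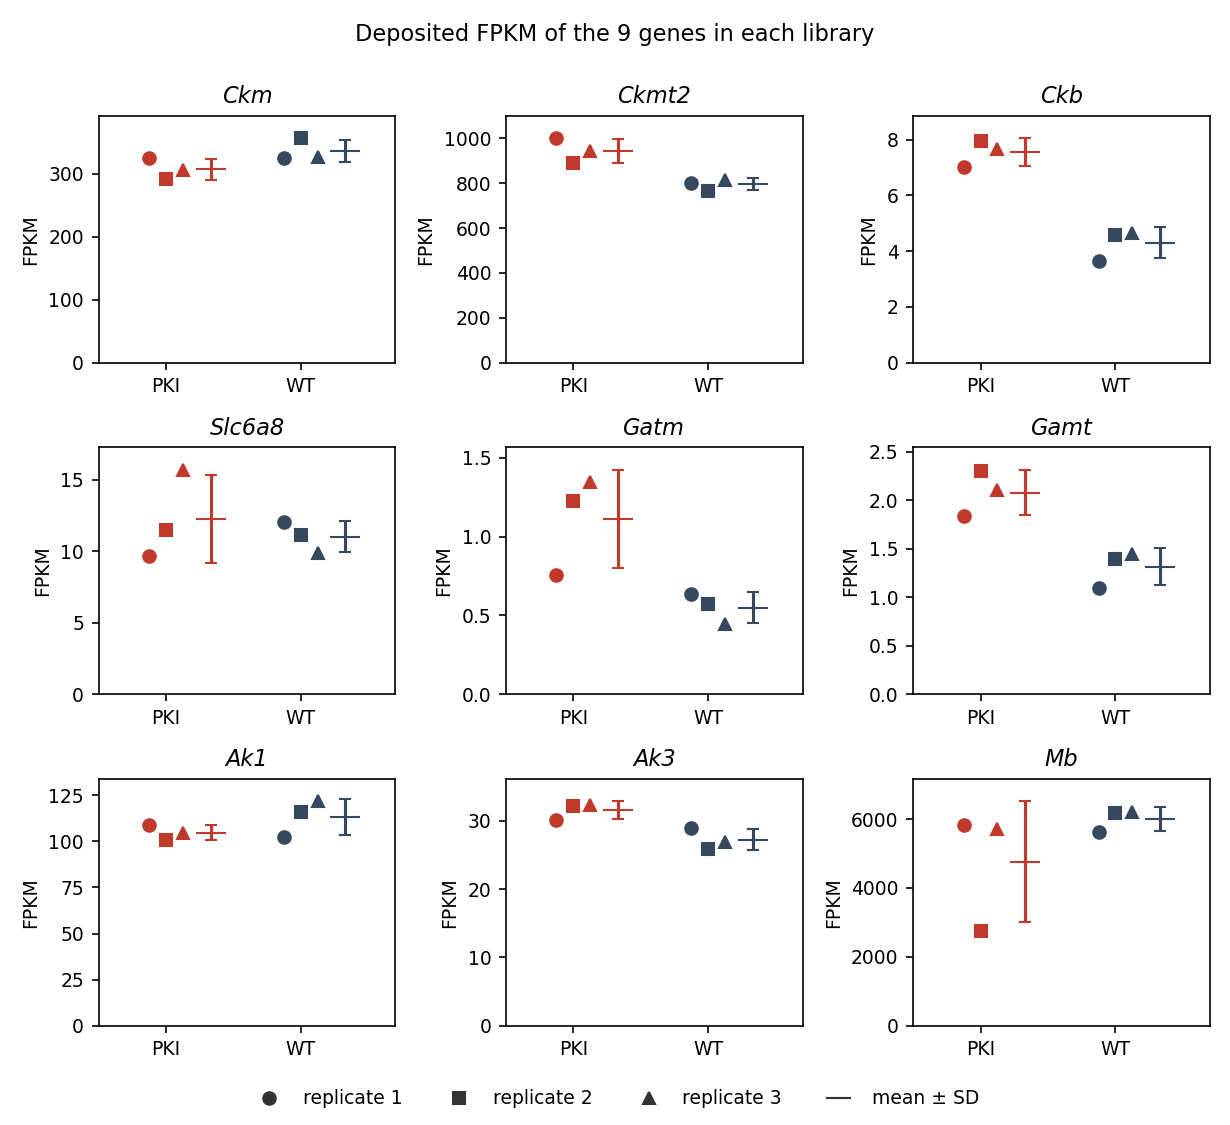
Deposited FPKM of each of the 9 genes (vertical axes from 0) in the 3 libraries labelled PKI and the 3 WT libraries; symbols mark the replicate, and the bar is the mean with its SD. Ckb, Ckmt2, Gatm, Gamt and Ak3 do not overlap between groups and are higher in the libraries labelled PKI, while for Mb the second library labelled PKI lies at 2753 FPKM, far under the other 5.

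Of the markers of other cell types, most of those of macrophages and fibroblasts were called higher on both scales, as Ckb was. Within WT the order differed: library 1 had the lowest Ckb level but the highest macrophage and fibroblast sums. Of all tested genes, 36.4% were called higher and 2.96% lower as deposited, and 8.54% and 8.23% after median-of-ratios scaling. All 9 macrophage markers were called higher, and 7 after scaling, with a summed level of 214 to 231 FPKM in the libraries labelled PKI and 71.5 to 109 FPKM in WT. Of 10 fibroblast markers 9 were called higher on either scale, with sums of 319 to 368 FPKM in the libraries labelled PKI and 114 to 169 FPKM in WT. Smooth muscle markers, of which 4 of 7 were called higher as deposited but 1 after scaling, summed to 182 to 220 FPKM in the libraries labelled PKI and 118 to 146 FPKM in WT. Endothelial markers, with 2 of 9 called higher as deposited and 0 higher and 1 lower after scaling, had a median change of 0.22, near that of all genes, and summed to 135 to 155 FPKM in the libraries labelled PKI and 126 to 134 FPKM in WT. The cardiomyocyte markers that define the tissue were all present and summed to 11872 to 12680 FPKM in the libraries labelled PKI and 10964 to 11730 FPKM in WT. Of those 13 markers 5 were called higher and 3 lower as deposited, with a median change of -0.00 against 0.21 for all tested genes, and 1 was called higher and 6 lower after scaling. None of the markers of these 5 cell types was at 0, and their part in the levels of Ckb and the other members was not tested.

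Skeletal muscle markers, which bear on Ckm and Ak1 since both are also abundant in that tissue, summed to 21.1 to 35.5 FPKM in the libraries labelled PKI and 13.7 to 16.0 FPKM in WT. Of those 12 markers 3 were tested and 2, Mybpc2 and Myot, were called higher, Mybpc2 also after scaling. The sums rest mostly on these 2 genes. Mybpc2 had 6.33, 9.84 and 9.33 FPKM in the libraries labelled PKI and 1.24, 1.73 and 1.41 FPKM in WT. Myot had 11.9, 17.9 and 20.0 FPKM in the libraries labelled PKI and 10.5, 11.8 and 9.93 FPKM in WT. Myh4 was at 0 in every library and 9 averaged under 1 FPKM. All 5 red blood cell markers were called lower on either scale, against 2.96% of all tested genes as deposited and 8.23% after scaling. Their sums were 274 to 338 FPKM in the libraries labelled PKI and 380 to 538 FPKM in WT. Atrial markers summed to 669 to 1500 FPKM in the libraries labelled PKI and 274 to 482 FPKM in WT, a difference that rests on Nppa. Nppa was the 1 of 6 called higher, while the other 5 had changes below 0, uncalled, and the list's median change was -1.03. Sln, an atrial gene, had 1.02, 0.901 and 8.99 FPKM in the libraries labelled PKI and 10.2, 6.02 and 16.2 FPKM in WT, lowest in libraries 1 and 2 labelled PKI. Of 6 adipocyte markers 2 were tested and 1, Cidea, was called higher, with sums of 15.8 to 18.7 FPKM in the libraries labelled PKI and 8.62 to 11.8 FPKM in WT. Most of each sum was Cidea, at 14.6, 13.6 and 14.6 FPKM in the libraries labelled PKI and 10.3, 8.43 and 8.68 FPKM in WT. Adipoq, Cfd and Plin1 overlapped between the groups. No red blood cell or atrial marker was at 0 in any library. Of the adipocyte markers, Ucp1 was above 0 only in library 3 labelled PKI, at 0.0617 FPKM, and Lep was at 0 in all WT libraries. Plin1, Ucp1 and Lep were under 1 FPKM in every library. The part of these cells in the results was not tested.

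A ratio of genes within a library does not depend on how libraries are scaled. Ckb stood at 2.16%, 2.73% and 2.51% of the Ckm level in the libraries labelled PKI, against 1.13%, 1.28% and 1.42% in WT. Ckmt2 was 3.08, 3.05 and 3.08 times the Ckm level in the libraries labelled PKI, against 2.47, 2.15 and 2.49 times in WT. Neither ratio overlapped between groups, and both had an exact two-sided permutation p of 0.1 (adjusted 0.35 over 7 ratios), the smallest that 3 against 3 libraries allow. The geometric mean ratio was 1.93-fold higher for Ckb to Ckm and 1.30-fold higher for Ckmt2 to Ckm in the libraries labelled PKI. Against the same denominator, 63.3% of all tested genes above 0 gave a ratio to Ckm that was higher in all libraries labelled PKI, and 1.84% gave one that was lower in all.

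Within the summed FPKM of the 3 creatine kinases, Ckm made up 24.4%, 24.5% and 24.4% in the libraries labelled PKI and 28.8%, 31.6% and 28.5% in WT. Ckmt2 held a mean of 74.98% ± 0.140 in the libraries labelled PKI and 70.0% ± 1.76 in WT (SD, n = 3 each). The share of Ckb was 0.526%, 0.669% and 0.612% in the libraries labelled PKI and 0.324%, 0.406% and 0.406% in WT. None of the 3 shares overlapped, each with an exact two-sided permutation p of 0.1 (also 0.1 adjusted over the 3). The shares are parts of the same sum and Ckb is a small part, so the Ckm and Ckmt2 shares are nearly the same contrast. Beside it stands the 63.3% of all tested genes whose ratio to Ckm was higher in all libraries labelled PKI. The sum itself was 1259 ± 70.1 FPKM in the libraries labelled PKI and 1135 ± 11.3 FPKM in WT.

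These shares rest on the length each gene was divided by, which for 8 members fitted the union of all annotated exons. Ckmt2 has 1 annotated transcript, and its values, with 6 decimals, could not be checked in this way. For Ckb the union spans 2895 bases, although its only coding transcript has 1472. On the length of the longest coding transcript, an alternative chosen after seeing the data, the Ckb share was 1.16% ± 0.138 in the libraries labelled PKI and 0.728% ± 0.0905 in WT. Ckm has coding transcripts of 2742 and 1235 bases, and on the shorter length its share was 43.3% ± 0.111 in the libraries labelled PKI and 49.8% ± 2.07 in WT. The Ckm share was lower in the libraries labelled PKI on both lengths, and the Ckmt2 and Ckb shares were higher on the longest coding transcripts. For Ckm no choice of lengths could change this direction. Its cause is arithmetic, as Ckmt2 and Ckb both stood higher relative to Ckm in every library labelled PKI than in WT.

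**Figure D2:**
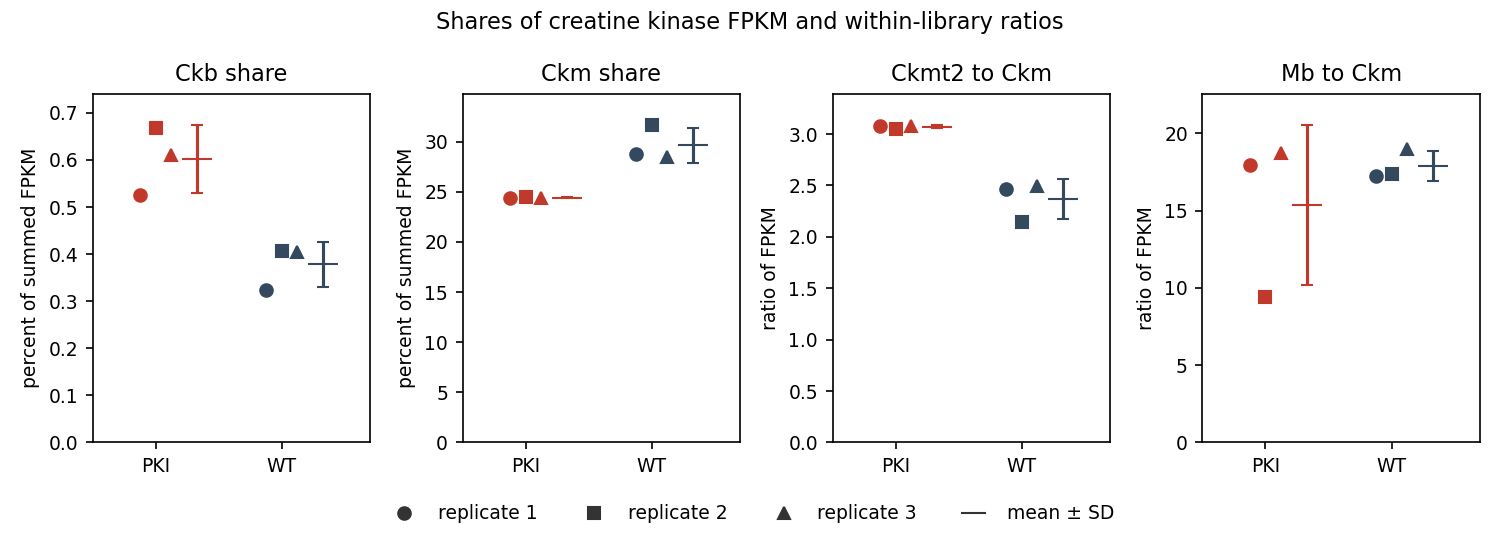
Share of Ckb and of Ckm in the summed creatine kinase FPKM (percent) and the ratios of Ckmt2 to Ckm and Mb to Ckm (vertical axes from 0) in each library, with mean and SD. The libraries labelled PKI cluster near 24.4% for the Ckm share, under all WT libraries, and the Mb to Ckm ratio is 9.43 in the second of them.

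Creatine supply was represented by Gatm, Gamt and Slc6a8. Gatm encodes the arginine:glycine amidinotransferase that starts creatine synthesis (ENSMUSG00000027199, chromosome 2, 122594467 to 122611303, minus strand). It had 0.757, 1.23 and 1.35 FPKM in the libraries labelled PKI, against 0.633, 0.575 and 0.443 FPKM in WT. All libraries labelled PKI were above all WT libraries, but its mean over the 6 libraries was under 1 FPKM, so it was not tested with the others. With no filter on low values its log2 change was 0.44 (limma adjusted p = 0.0839).

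Gamt encodes the methyltransferase that completes creatine (ENSMUSG00000020150, chromosome 10, 80258151 to 80261012, minus strand). Its level was 1.83, 2.29 and 2.11 FPKM in the libraries labelled PKI, against 1.09, 1.39 and 1.45 FPKM in WT. The groups did not overlap, with means of 2.08 ± 0.233 FPKM in the libraries labelled PKI and 1.31 ± 0.191 FPKM in WT (SD, n = 3 each), a ratio of 1.58. The log2 change was 0.41 (SE 0.09, 95% interval 0.19 to 0.64, limma adjusted p = 0.0154). It was not called after median-of-ratios scaling (0.24, limma adjusted p = 0.139) and was called after scaling to the cardiomyocyte markers (0.38, limma adjusted p = 0.0312).

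Slc6a8 encodes the transporter that brings creatine into the cell (ENSMUSG00000019558, chromosome X, 73673150 to 73682502, plus strand). It had 9.68, 11.5 and 15.7 FPKM in the libraries labelled PKI and 12.0, 11.2 and 9.88 FPKM in WT. The groups overlapped, and library 3 labelled PKI was the highest of the 6. The log2 change of 0.12 (SE 0.16, 95% interval -0.26 to 0.50, limma adjusted p = 0.560) was not called. Without that library it was -0.06, and after median-of-ratios scaling it was -0.13, so no direction is given for the transporter.

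The ratio of Gatm to Gamt was 0.414, 0.535 and 0.641 in the libraries labelled PKI and 0.580, 0.413 and 0.306 in WT. These ranges overlapped, with an exact two-sided permutation p of 0.4 (0.56 adjusted over the 7 ratios). Slc6a8 stood at 2.98%, 3.93% and 5.13% of the Ckm level in the libraries labelled PKI and 3.70%, 3.13% and 3.02% in WT, also overlapping, with an exact two-sided permutation p of 0.4 (0.56 adjusted over the 7 ratios).

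Ak1 encodes the cytosolic adenylate kinase of muscle (ENSMUSG00000026817, chromosome 2, 32621758 to 32635058, plus strand). It had 109, 101 and 105 FPKM in the libraries labelled PKI and 102, 116 and 122 FPKM in WT. The groups overlapped, since the first WT library lay within the range of the libraries labelled PKI. The log2 change was -0.11 (SE 0.08, limma adjusted p = 0.276) as deposited. Ak1 was called lower after median-of-ratios scaling (-0.38, limma adjusted p = 0.0225) and after nuclear total scaling (-0.32, limma adjusted p = 0.0280), but not after scaling to the cardiomyocyte markers (-0.17, limma adjusted p = 0.155).

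Ak3 encodes the GTP:AMP phosphotransferase of the mitochondrial matrix (ENSMUSG00000024782, chromosome 19, 29020833 to 29047961, minus strand). Its values were 30.1, 32.2 and 32.4 FPKM in the libraries labelled PKI, against 28.9, 25.9 and 26.9 FPKM in WT. All libraries labelled PKI were above all WT libraries, with means of 31.6 ± 1.30 FPKM in the libraries labelled PKI and 27.2 ± 1.56 FPKM in WT (SD, n = 3 each), a ratio of 1.16. The log2 change of 0.21 (SE 0.07) only just passed (limma adjusted p = 0.0462). It lay at the median of all tested genes, turned to -0.06 after median-of-ratios scaling (limma adjusted p = 0.592), and was lost without any 1 library except WT library 1, with limma adjusted p of 0.0344 to 0.130. Cdc37l1, listed at 6.37 FPKM or less, shares a stretch of 121 bases with the longest coding transcript of Ak3 (2809 bases) on the opposite strand, and its reads cannot be told apart in an unstranded library. The same holds for antisense genes at Ckm (A930016O22Rik) and Ckmt2 (1700119I11Rik) and for Apol6 at Mb, listed at 2.43, 0.901 and 0.160 FPKM or less. It also holds for the antisense gene 1700018L02Rik, which shares 283 bases with Ak3 and was listed at 0.339 FPKM or less. The antisense gene Gm49540 shares 408 bases with Mb and had no FPKM listed.

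Ak1 stood at 0.335, 0.345 and 0.343 of the Ckm level in the libraries labelled PKI and 0.315, 0.325 and 0.372 in WT (exact two-sided permutation p = 0.9, also 0.9 adjusted over the 7 ratios). The ratio of Ak3 to Ak1 was 0.276, 0.320 and 0.309 in the libraries labelled PKI and 0.283, 0.223 and 0.221 in WT. That ratio overlapped through the first WT library, with an exact two-sided permutation p of 0.2 (0.467 adjusted over the 7 ratios).

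Mb, the oxygen-binding protein of muscle, was the most abundant member in every library (ENSMUSG00000018893, chromosome 15, 77015487 to 77050670, minus strand). It had 5835, 2753 and 5717 FPKM in the libraries labelled PKI and 5613, 6189 and 6211 FPKM in WT. A single library, the second labelled PKI, stood apart at 47.7% of the mean of the other libraries with that label, and the other 5 libraries overlapped. Group means were 4768 ± 1746 FPKM in the libraries labelled PKI and 6004 ± 339 FPKM in WT (SD, n = 3 each). The log2 change of -0.41 (SE 0.27, 95% interval -1.05 to 0.23, limma adjusted p = 0.250) was not called, and without that library it was -0.05.

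Mb was among 27 of the 9907 tested genes, or 0.273%, that were at least as low in that library relative to the others labelled PKI. Mb took 3.68%, 1.77% and 3.62% of the FPKM outside mitochondrial genes and their copies in the libraries labelled PKI and 4.14%, 4.55% and 4.57% in WT. After median-of-ratios scaling libraries 1 and 3 labelled PKI, at 5309 and 5254, were also below the WT libraries at 6084, 6854 and 6878, with a log2 change of -0.68 (limma adjusted p = 0.147). The ratio of Mb to Ckm was 18.0, 9.43 and 18.7 in the libraries labelled PKI and 17.2, 17.4 and 19.0 in WT (exact two-sided permutation p = 0.8, or 0.9 adjusted over the 7 ratios).

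The levels kept one order in both groups: Mb, Ckmt2, Ckm, Ak1, Ak3, Slc6a8, Ckb, Gamt and Gatm, from high to low FPKM per union exon length. Neighbours in that order did not overlap in their ranges over 3 libraries. Mb ranked 22 in level among tested genes in both groups. Ckmt2 ranked 40 in the libraries labelled PKI and 42 in WT, and Ckm ranked 86 in the libraries labelled PKI and 70 in WT. On the length of the longest coding transcript, Slc6a8 and Ckb overlapped in the libraries labelled PKI. On its shorter coding transcript Ckm averaged 725 ± 38.8 FPKM in the libraries labelled PKI, still under Ckmt2 at 944 ± 54.2 FPKM. In WT Ckm averaged 794 ± 41.1 FPKM on that length, level with Ckmt2 at 795 ± 26.2 FPKM. The order of Ckmt2 over Ckm in WT therefore rests on the length used.

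Genes whose 6-library pattern lay nearest to a member differed between members. Nearest to Ckm were Fastk, Pxmp4 and Got2, at Euclidean distances of 0.050, 0.054 and 0.054 in centred log2(FPKM + 1). Fam46a, Akip1 and Gpc4 were nearest to Ckb, at 0.132, 0.147 and 0.151. The nearest to Mb, at 0.300, 0.327 and 0.374, were Pcyt1a, Gxylt1 and Metrn. All were low in the second library labelled PKI, which follows from picking genes near the Mb pattern. Pcyt1a, for example, had 15.4, 6.36 and 15.9 FPKM in the libraries labelled PKI and 14.3, 13.9 and 13.5 FPKM in WT.

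**Figure D3:**
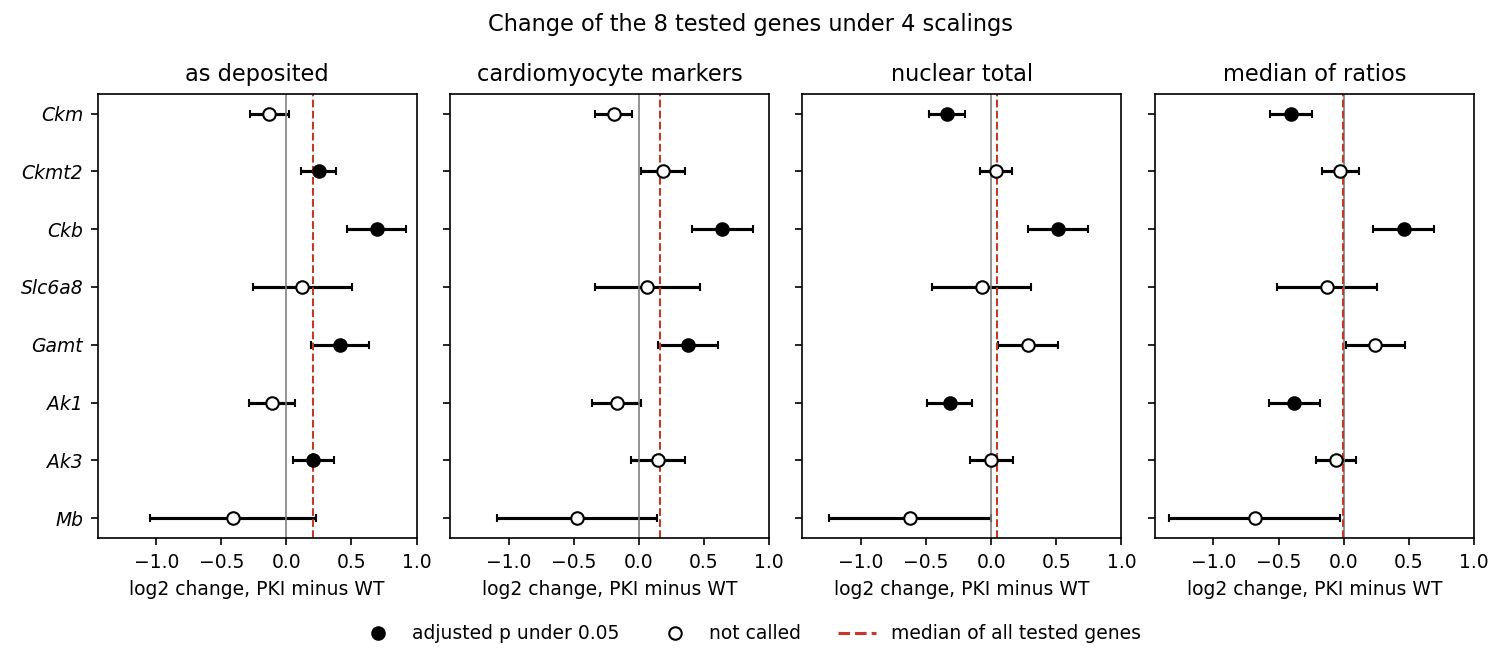
Log2 change of the 8 tested members (libraries labelled PKI minus WT, horizontal axis, with 95% intervals) as deposited and after 3 scalings; filled points had a limma adjusted p under 0.05, and the dashed line is the median of all tested genes. Ckb is the member called higher in all 4 panels, and Ckm and Ak1 are called lower in the last 2.

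Other genes of phosphate transfer were read from 7 lists chosen with earlier results of these data known. Medians below are log2 changes of a list's tested genes. They are to be set beside 0.21 for all tested genes as deposited and -0.00 after median-of-ratios scaling. Counts are to be set beside the 36.4% of all tested genes called higher and 2.96% called lower as deposited. Counts after median-of-ratios scaling stand beside 8.54% called higher and 8.23% called lower. Of the other creatine and adenylate kinases, 3 of 8 were tested and 0 were called in either direction, with a median of 0.27 as deposited and 0.02 after scaling. Ckmt1, the widely expressed mitochondrial creatine kinase, had 0.212, 0.249 and 0.251 FPKM in the libraries labelled PKI and was listed at 0 in all WT libraries. Ak4, a mitochondrial adenylate kinase, had 4.86, 4.97 and 5.0 FPKM in the libraries labelled PKI and 0.955, 6.65 and 6.88 FPKM in WT. The first WT library stood far under the other 5 for Ak4.

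Of the genes of nucleotide phosphate transfer and exchange, 14 of 16 were tested, 6 were called higher and 1 lower, with a median of 0.20. Slc25a5, an exchanger of ADP for ATP across the inner mitochondrial membrane, had 119, 113 and 118 FPKM in the libraries labelled PKI, against 79.3, 66.0 and 70.1 FPKM in WT. It was called higher as deposited (log2 change 0.70, limma adjusted p = 0.00127) and after median-of-ratios scaling (0.43, limma adjusted p = 0.00923). Its close paralog Slc25a4, the main such exchanger of heart muscle, had 1108, 936 and 1047 FPKM in the libraries labelled PKI and 1170, 1129 and 1157 FPKM in WT. Slc25a4 was below WT in every library labelled PKI, was not called as deposited (-0.16, limma adjusted p = 0.0845) and was called lower after scaling (-0.44, limma adjusted p = 0.00785). Reads of such paralogs may be shared, so both levels are uncertain.

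The mitochondrial phosphate carrier gene Slc25a3 was the 1 called lower, at 94.0 ± 1.97 FPKM in the libraries labelled PKI and 109 ± 2.45 FPKM in WT (log2 change -0.21, limma adjusted p = 0.0174). Guk1, the guanylate kinase gene, was 1.47-fold higher (log2 change 0.52, limma adjusted p = 0.00137), and Nme1, a nucleoside diphosphate kinase gene, was 1.68-fold higher (0.61, limma adjusted p = 0.00272). Both were also called higher after median-of-ratios scaling. Vdac2, a channel of the outer mitochondrial membrane, was 1.22-fold higher and the UMP/CMP kinase gene Cmpk1 1.27-fold higher as deposited. The Cmpk1 call was lost without library 2 or 3 labelled PKI or WT library 2 or 3 (limma adjusted p up to 0.0867), and the Slc25a3 call without library 3 labelled PKI (limma adjusted p = 0.0593). After scaling, Slc25a5, Guk1 and Nme1 were the 3 of this list called higher, and Slc25a3, Slc25a4, Vdac1 and Vdac3 were the 4 called lower.

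Adenine nucleotide breakdown and salvage had 14 of 17 genes tested, with 8 called higher, 1 called lower and a median of 0.30. The nucleotidase genes did not move together. Nt5e, whose surface enzyme makes adenosine from AMP outside the cell, had 2.30 ± 0.304 FPKM in the libraries labelled PKI and 1.08 ± 0.170 FPKM in WT, a ratio of 2.12 (log2 change 0.66, limma adjusted p = 0.00369). Nt5c was 1.77-fold higher (0.65, limma adjusted p = 0.00354) and Nt5c2 1.38-fold higher (0.39, limma adjusted p = 0.0129). Nt5c1a, the cytosolic enzyme that makes adenosine from AMP in heart and skeletal muscle, was the 1 called lower.

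Nt5c1a had 4.27, 4.93 and 3.41 FPKM in the libraries labelled PKI, against 6.55, 7.23 and 7.60 FPKM in WT. The groups did not overlap, and the log2 change was -0.65 as deposited (limma adjusted p = 0.00674) and -0.88 after median-of-ratios scaling (limma adjusted p = 0.00330). Hprt, the purine salvage gene, was 1.42-fold higher and the muscle adenylosuccinate synthase gene Adssl1 1.25-fold higher as deposited. After scaling, Nt5e and Nt5c were the 2 of this list called higher, and Nt5c1a, Adk and Nt5c3 were the 3 called lower.

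Of 10 genes of AMP-activated protein kinase and its upstream kinase, 8 were tested, 3 were called higher and 0 lower, with a median of 0.23. The catalytic subunit gene Prkaa1 was 1.49-fold higher (log2 change 0.42, limma adjusted p = 0.0150), the regulatory subunit gene Prkab2 1.26-fold higher (0.31, limma adjusted p = 0.0148) and Cab39, which encodes a scaffold of the upstream kinase, 1.25-fold higher (0.31, limma adjusted p = 0.0269). The Cab39 call was lost without any 1 of the libraries except WT library 1 (limma adjusted p 0.0125 to 0.0802 over the 6 fits). Prkaa2, the catalytic subunit gene prominent in muscle, had 15.6 ± 1.12 FPKM in the libraries labelled PKI and 15.1 ± 0.817 FPKM in WT (0.05, limma adjusted p = 0.634). After median-of-ratios scaling 0 of these genes were called higher, and Prkab1 and Prkag1 were the 2 called lower.

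Of 15 genes of methyl and arginine supply, 7 were tested and 3 were called higher. Mat2a, which makes the methyl donor used by Gamt, was 1.39-fold higher (log2 change 0.45, limma adjusted p = 0.0182). Ahcy, which clears the product of that methyl transfer, was 1.24-fold higher, and its relative Ahcyl1 was 1.21-fold higher as deposited, with a log2 change of -0.0026 after median-of-ratios scaling. The Mat2a call was lost without library 1 or 3 labelled PKI or WT library 2 or 3 (limma adjusted p 0.0107 to 0.0614 over the 6 fits), and the calls of Ahcy and Ahcyl1 without any 1 library except WT library 1 (up to 0.111 and 0.102). After scaling 0 were called higher and 1, Oat, was called lower, and the median was 0.24 as deposited.

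Beside myoglobin, the list of other globins and hypoxia response genes had 15 of 17 tested, 8 called higher and 0 lower, with a median of 0.26. Cygb, the cytoglobin gene, known from fibroblasts and related cells, had 29.6, 30.7 and 29.8 FPKM in the libraries labelled PKI, against 13.8, 14.9 and 12.4 FPKM in WT. Its groups were far apart, a ratio of 2.19 (log2 change 1.08, limma adjusted p = 0.000473, and 0.82 after median-of-ratios scaling, limma adjusted p = 0.00138). The fibroblast marker sums given above were also higher in the libraries labelled PKI, and their part was not tested.

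Ankrd37, a target of hypoxia-inducible factor, was 2.06-fold higher (log2 change 0.55, limma adjusted p = 0.00391) and was also called higher after scaling (0.40, limma adjusted p = 0.0168). Hif1a, which encodes the oxygen-regulated subunit of that factor, was 1.52-fold higher, Bnip3 1.39-fold, the glucose transporter gene Slc2a1 1.53-fold and Adm 1.60-fold as deposited, and none of these 4 was called after scaling. The Adm call was also lost without library 1 or 3 labelled PKI or WT library 1 or 2 (limma adjusted p up to 0.0643). Epas1 and Egln1 were the 2 genes of the list called lower after scaling. Ngb, the neuroglobin gene, was listed at 0.

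Of 11 regulators of muscle and mitochondrial genes, 10 were tested, 0 were called higher and 1 lower, with a median of -0.04 as deposited and -0.28 after scaling. The 1 called lower was Ppara, a nuclear receptor of fatty acid use, at 3.62 ± 0.295 FPKM in the libraries labelled PKI and 4.97 ± 0.424 FPKM in WT (log2 change -0.37, limma adjusted p = 0.0149). It was also called lower after median-of-ratios scaling, together with Mef2d and Ppargc1a. Esrra, which encodes the estrogen-related receptor that binds the AAGGTCA half-site, had 22.0 ± 1.25 FPKM in the libraries labelled PKI and 20.0 ± 1.66 FPKM in WT (0.13, limma adjusted p = 0.227).

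**Figure D4:**
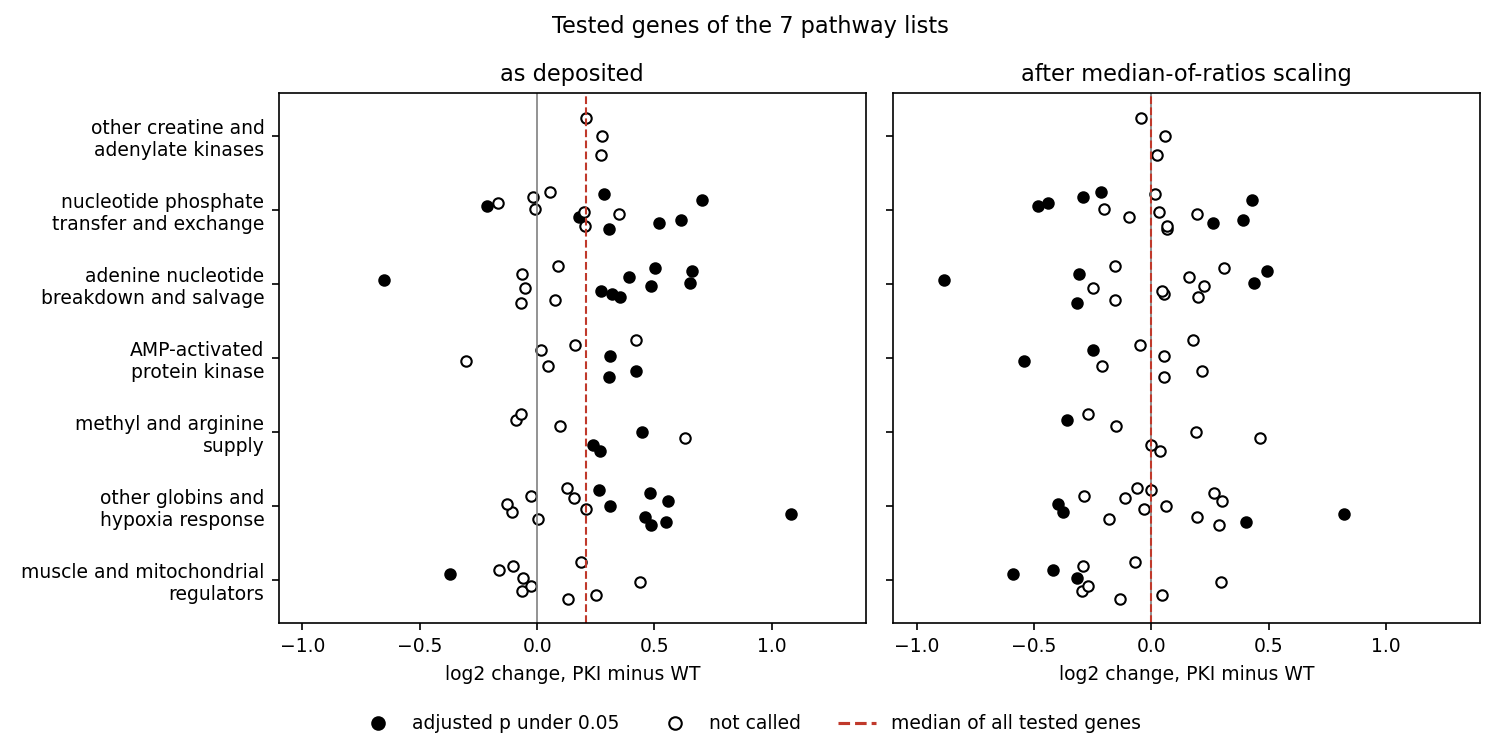
Log2 change (libraries labelled PKI minus WT, horizontal axes) of each tested gene of the 7 lists, as deposited and after median-of-ratios scaling; filled points had a limma adjusted p under 0.05, and the dashed line is the median of all tested genes. Most filled points lie right of 0 as deposited. After scaling 7 of the 71 genes are called higher and 15 lower, against 8.54% and 8.23% of all tested genes. Cygb is the rightmost point and Nt5c1a the leftmost in both panels.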

How the data were processed

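Total RNA of left ventricular tissue was sequenced in 3 libraries labelled PKI and 3 labelled WT, with the unstranded Illumina TruSeq kit named in the labels' protocols. The authors deposited 1 FPKM per gene and library. The submitters' processing notes name CASAVA, Bowtie 0.12.2 and the build mm9, with no role given; the annotation behind the deposited FPKM is not given in the sources used here. Multiplied by the union exon length in GENCODE M21 (GRCm38), deposited values fell on whole sixth decimals (tolerance 0.005) in 6229 of 6782 genes with more decimals. Levels are therefore taken as per union exon length. The read depth of the libraries is not known, so intervals from counts could not be made.

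Both deposited gene tables held identical values. Of 52550 genes, 24705 were above 0 and the 9907 with a mean of at least 1 FPKM were tested in limma 3.58.1 (R 4.3.3) on log2(FPKM + 1) with a variance trend and Benjamini-Hochberg adjustment, a fit checked on simulated data. Log2 changes on this scale understate the change of low genes. Ratios and shares were compared by exact permutation tests. Alternatives were 3 scalings, a pseudocount of 0.1, no filter or a mean of at least 5 FPKM, no variance trend, the replicate number as a block, and fits without each library in turn.

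The members and lists were chosen with earlier results of these data known. Named genes are all members, Ppargc1a, the called genes of each list (the 6 with the smallest p where more were called) with further genes needed to describe it, and the 3 genes nearest in pattern to Ckm, Ckb and Mb. Genes named as called after scaling, and Ngb, Prkaa2, Esrra and Sln, were added to describe their lists. Promoters are from RefSeq, and blastn was used to find similar transcripts.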

Additional observations from a re-analysis of the deposited data

How the results depend on the processing

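Scaling moved the calls most. Members called higher numbered 4 as deposited, 1 after median-of-ratios scaling, 1 after nuclear total scaling and 2 after scaling to the cardiomyocyte markers; members called lower numbered 0 as deposited and 2 after each of the first 2 scalings. Over all tested genes, 3609 higher and 293 lower became 846 and 815, 1019 and 603, and 2178 and 302 under these 3 scalings, and 1739 and 186 with a mean of at least 5 FPKM. List genes called higher became 7, 8 and 18, and those called lower 15, 12 and 3. Median-of-ratios scaling turned the log2 change of Ckmt2 to -0.026, of Ak3 to -0.058, of Slc6a8 to -0.13 and of Ahcyl1 to -0.0026, and nuclear total scaling turned Slc6a8 to -0.074. Ckb was called higher in each setting. Leaving out 1 library gave 2179 to 3162 genes higher and 165 to 263 lower, 3 to 4 members higher and 0 lower, and 17 to 28 list genes higher and 2 to 4 lower. It gave log2 changes of -0.055 (without library 3 labelled PKI) to 0.27 for Slc6a8 and log2 ratios of 0.86 to 1.04 for Ckb to Ckm, 0.31 to 0.42 for Ckmt2 to Ckm, -0.46 to 0.039 (without library 2 labelled PKI) for Mb to Ckm and -0.027 to 0.093 for Ak1 to Ckm. The replicate block rested on numbers only: same-numbered libraries correlated at -0.10, 0.00 and 0.05, and the block gave 2625 genes higher and 224 lower and 3 members higher. Ak3 was not called with no filter, no variance trend or the block. The causes were not tested. FPKM without counts give no limit of detection for Gatm or Ckmt1.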
